A study of Drosophila melanogaster with 4 samples.

Results

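The regions described here are the Paired (Prd) ChIP-seq peaks on chromosome arm 2L of Drosophila melanogaster, 264 of the 1155 peaks in the deposited list. They are all peaks whose sequence name is 2L, a choice that used position and no measured value, and the 1 peak on the heterochromatic scaffold 2LHet is not among them. Of the 264 peaks, 84 lie in a tandem array at 21416997 to 21543149 and are kept apart from the other 180. All positions are on FlyBase release 5, per the file headers. Prd chromatin was immunoprecipitated from whole embryos with the affinity-purified rabbit polyclonal antibody RF13 (2 samples), and input DNA was sequenced beside it (2 samples).

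Both groups came from the same strain, y; cn bw sp, which also gave the species its reference genome sequence, and no treatment or genotype set them apart. The strain carries y[1] and oc[R3.2] on the first chromosome. On the second it carries Gr22b[1] with Gr22d[1], then cn[1] and CG33964[R4.2], and also bw[1] and sp[1]. On the third it carries LysC[1] and lab[R4.2], together with MstProx[1], GstD5[1] and Rh6[1]. Embryos of a 0 to 12 h egg collection were pooled, so cells of many stages and tissues contribute to each library, and they were fixed in 1.8% formaldehyde for 15 min. The antigen of RF13 joined residues 355 to 552 of Prd to residues 572 to 613, leaving out the paired repeat.

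Prd is a pair-rule transcription factor. It is first made in stripes across every other segment of the early embryo and later in a stripe in each segment. It binds DNA through its paired domain and its homeodomain, and it activates segment-polarity genes such as engrailed, gooseberry and wingless. Arm 2L carries prd itself and wingless, besides other segmentation genes such as odd, its neighbour sob, and the adjacent pair slp1 and slp2. The same arm carries the tandem array of replication-dependent histone genes, which are transcribed in S phase.

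A list of 13 segmentation and other patterning genes, drawn up as genes of 2L, was matched to a RefSeq gene table of release 6. They were odd, slp1, slp2, wg, prd, drm, sob, nub, pdm2, Wnt4, salm, salr and esg. The table placed all 13 on 2L, as the choice of list implies, so this does not show how such genes are shared among arms. That table also lists 111 genes of 5 histone families in 1 cluster on 2L. They are 23 of His1, 20 of His2A, 23 of His2B, 23 of His3 and 22 of His4. From the first to the last histone gene the table lists 135 genes of all kinds, so 24 other genes lie among them. Positions were not carried between releases. Which of these genes lie at which peaks was therefore not tested, and peaks are given by position alone.

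The list holds 1 score per peak, the authors' own value on a scale not given in the sources used here. A higher score ranks a peak higher within this list. The list holds no value per sample, so no peak carries an error between replicates. Read depth per library is unknown. Values below are descriptions of 1 set of calls, peaks are not replicates of the experiment, and no difference between sets of peaks was put to a test.

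Outside the array, 2L carried a few strong peaks among many weak and narrow ones. The 180 peaks had a median score of 12.0 (interquartile range 9.30 to 17.8, full range 6.56 to 176). A score under 10 was held by 57 of them (31.7%), and the 5 lowest lay between 6.56 and 7.26. The first quartile of scores was 10.28 over the whole list and 9.92 on 2R, 3L, 3R and X together, so low scores were common there too. Scores of at least 20 were held by 41 peaks (22.8%), against 30.2% of the whole list, and scores of at least 50 by 12 peaks (6.67%), against 6.06% of the whole list. On 2R, 3L, 3R and X together, 26.7% of 675 peaks reached 20 and 8.59% reached 50. These arms differed, with shares at 20 or more from 19.4% on 3L to 47.5% on X. At 50 or more the shares ran from 5.71% on 3L to 20.2% on X.

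The peak at 11808081 to 11808949 stood first on the arm with a score of 176. It was 869 bp wide, and its nearest neighbour, 2636 bp away between midpoints, had a score of 8.21. The second, at 5519529 to 5520953, had a score of 89.98 and a width of 1425 bp. The third, at 21168037 to 21168692, had a score of 83.4 and was the last peak before the array, which starts 248304 bp further on.

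Ranks 4 to 8 ran down from 76.9 to 63.2. They lay at 14234085 to 14234730 (score 76.9), 2749207 to 2750350 (score 74.9), 20823026 to 20823705 (score 73.2), 2197172 to 2197936 (score 66.2) and 819157 to 820743 (score 63.2). Ranks 9 to 12 lay at 3456879 to 3457593 (score 60.1), 18572347 to 18572947 (score 52.3), 573882 to 574620 (score 52.0) and 15038835 to 15039556 (score 51.7). Ranks 13 to 15 fell below 50, with peaks at 9700403 to 9701008 and 13378450 to 13379013 (score 42.98 each) and at 18688847 to 18689370 (score 42.5). These 15 peaks were between 524 and 1587 bp wide, and all 15 were thus wider than the third quartile of the 180 peaks, 469.8 bp.

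**Figure D1:**
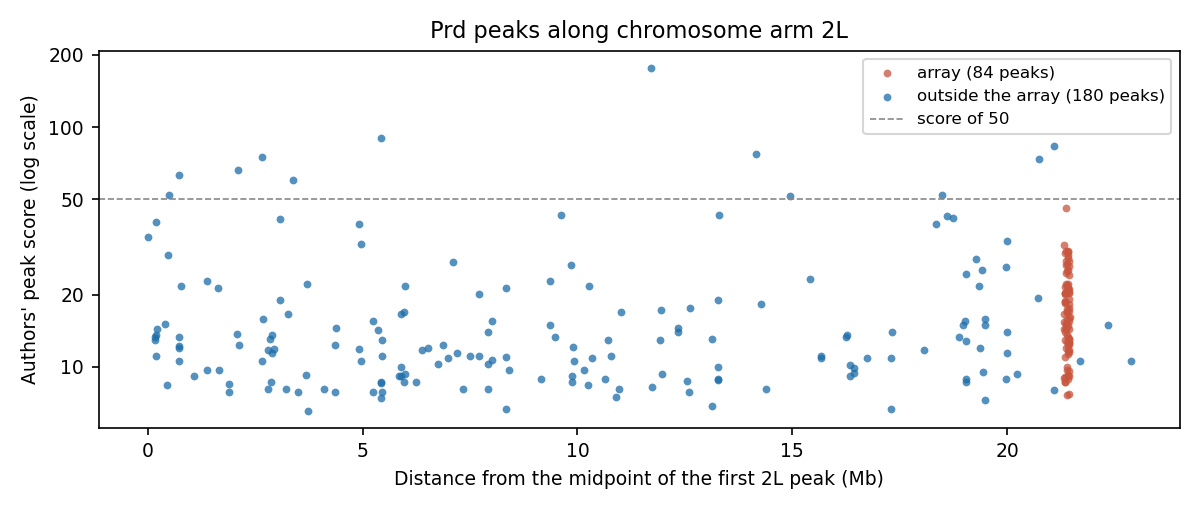
The authors' score of each 2L peak (log scale) against its distance in Mb from the midpoint of the first 2L peak, with 84 array peaks in red and 180 other peaks in blue. The 12 peaks above the dashed line at 50 are spread from one end of the arm to the other, and all 84 array peaks stand in 1 narrow column below it.

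The strong peaks were spread along the arm. In windows of 1 Mb counted from position 1, the 12 peaks with a score of 50 or more fell in 10 of 23 windows. Windows held a median of 8 peaks outside the array (interquartile range 4 to 9, full range 2 to 18) and a mean of 7.83 ± 4.29 (SD, 23 windows). The window from 5 to 6 Mb held 18 peaks, the first window held 17 and the window from 19 to 20 Mb held 14, while 7 windows held 4 or fewer. In the window from 5 to 6 Mb the median score was 10.9, and in the first window it was 13.6.

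Peak numbers were highest towards the low-coordinate end, which is the telomeric end of 2L. The 22874273 bp between the outermost peaks of 2L were divided into 3 equal parts. From low to high coordinates these held 82, 52 and 46 of the 180 peaks (45.6%, 28.9% and 25.6%). In the same order, median scores were 12.0, 11.1 and 13.3, and median widths were 288.5, 290.0 and 335.5 bp. The first part held 6 of the 12 peaks with a score of 50 or more, and the other 2 parts held 3 each. Beyond the array, towards the centromere, 3 peaks remained, at 21794964 to 21795164, 22429567 to 22429873 and 22961462 to 22961670. Their scores were 10.6, 14.9 and 10.6.

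One stretch chosen after its values were seen was the window from 18 to 19 Mb, where 6 peaks had a median score of 40.6. Its 4 inner peaks each scored well above the arm's median. They lay at 18443264 to 18443585 (score 39.5), 18572347 to 18572947 (score 52.3), 18688847 to 18689370 (score 42.5) and 18830542 to 18831029 (score 41.6). Each stood alone, with no other peak within 10 kb. The outer peaks, at 18151039 to 18151297 and 18968801 to 18969104, scored 11.7 and 13.3.

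The longest stretch of 2L without a peak ran from 13379014 to 14234084 (855071 bp). It was bounded by a peak of score 42.98 on its low side and one of score 76.9 on its high side. The next 3 ran from 8483501 to 9244078 (760578 bp), from 17410621 to 18151038 (740418 bp) and from 11091821 to 11808080 (716260 bp), the last ending at the highest-scoring peak of the arm. The fifth, from 21795165 to 22429566 (634402 bp), lay on the centromeric side of the array.

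Neighbouring peaks outside the array were a median of 46720 bp apart between midpoints (178 spacings, without the one that bridges the array). The interquartile range of these spacings was 5881 to 175097 bp, and the extremes were 302.5 and 855676 bp. Of the 178 spacings, 21 (11.8%) were under 1 kb and 29 (16.3%) were from 1 to 10 kb. Another 58 (32.6%) were from 10 to 100 kb, and 70 (39.3%) were over 100 kb. On 2R, 3L, 3R and X together the shares over the same classes were 9.69%, 16.2%, 35.2% and 38.9% of 671 spacings. Median spacing by arm was 55166.5 bp on 2R, 69164 bp on 3L, 37442.5 bp on 3R and 81456.5 bp on X. The median of 2L lay within that spread.

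**Figure D2:**
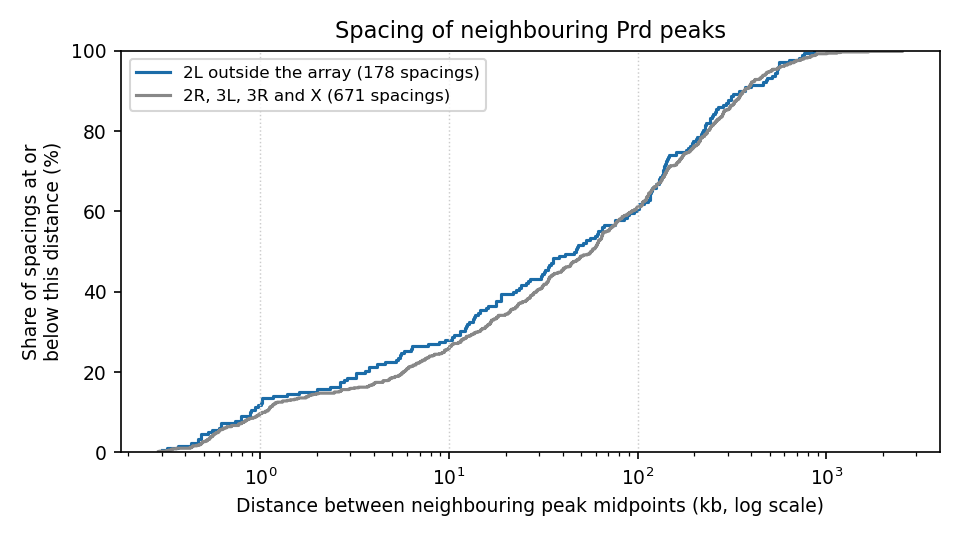
Cumulative share (%) of the distances between neighbouring peak midpoints (kb, log scale) for 2L outside the array in blue and for 2R, 3L, 3R and X together in grey. Both curves climb slowly below 10 kb and steeply above it. Medians are 46720 bp on 2L and 56430 bp on the other arms pooled, with single arms from 37442.5 to 81456.5 bp.

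Of the 180 peaks, 84 (46.7%) had another 2L midpoint within 10 kb, against 44% of 675 peaks on the other long arms, so closeness of this kind was near the background. The share was 46.4% on 2R, 40.0% on 3L, 46.8% on 3R and 40.4% on X. The closest neighbours on 2L, at 13220143 to 13220468 and 13220513 to 13220737, had 44 bp between their edges and scores of 13.1 and 6.89. In all, 8 gaps were under 100 bp.

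When peaks with edges at most 10 kb apart were joined, the 180 peaks formed 129 groups. Of these, 95 were single peaks, 23 were pairs, 7 were triplets, 2 held 4 peaks and 2 held 5. The 34 groups of more than 1 peak held 85 peaks. Single peaks had a median score of 13.0 (interquartile range 9.72 to 18.9, n = 95), and grouped peaks had a median of 11.9 (interquartile range 8.90 to 15.9, n = 85).

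Members of a group ranged from nearly equal in score to very unequal. By definition the highest peak of a group exceeds the others, so the following values are a description of how unequal the members were. The highest peak scored a median of 1.91 times the next one of its group (interquartile range 1.17 to 2.39, 34 groups), and in 13 groups more than 2 times. In 5 groups the ratio was above 5. These included the pair of the highest-scoring peak of the arm, with a ratio of 21.5, and the groups at 5519120 to 5524466 and 21167652 to 21168692, with 10.4 each. The highest peaks of the 34 groups had a median score of 20.7 and a median width of 487 bp, and the remaining 51 members had a median score of 9.72, with an interquartile range of 8.40 to 12.1. Of the 12 peaks with a score of 50 or more, 6 stood alone, 4 were in pairs and 2 were in larger groups.

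The group at 815291 to 821125 held 5 peaks. Its first 3, at 815291 to 815570, 815745 to 816048 and 816173 to 816553, scored 12.0, 10.6 and 13.4. The fourth, at 819157 to 820743, was 1587 bp wide and scored 63.2, and the fifth, at 820808 to 821125, followed closely and scored 12.2. One wide, high peak was thus flanked on one side by 3 narrow peaks and on the other by 1.

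The group at 5519120 to 5524466 had the same makeup with fewer members. The wide peak of score 89.98 lay between a peak at 5519120 to 5519325 (score 7.41) and a peak at 5521006 to 5521258 (score 8.59). The last peak lay at 5524205 to 5524466 (score 8.64). The 3 lesser peaks were 206, 253 and 262 bp wide, near the 201 bp at which the narrowest peaks of the list stood.

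In the group at 13366048 to 13379013 the high peak stood apart from the rest. Its first 4 peaks lay within 13366048 to 13368453 and scored 8.90, 9.99, 19.1 and 8.77. The fifth peak, at 13378450 to 13379013, scored 42.98 and began about 10 kb further on. The group at 19122909 to 19133773 had 4 peaks with scores between 8.64 and 24.45, of which the second, at 19127017 to 19127344, was highest at a width of 328 bp.

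Peak width ran from 201 to 1732 bp outside the array, with a median of 306.5 bp (interquartile range 241 to 470 bp). A width of exactly 201 bp, the lowest in the list, was shared by 7 peaks, and 53 peaks (29.4%) were under 250 bp. The first quartile of width was 250 bp over the whole list and 244 bp on 2R, 3L, 3R and X together, so narrow peaks were common there too. The widest peak outside the array, at 851789 to 853520 (1732 bp), had a score of 21.7. It was followed by the peaks of 1587 and 1425 bp given above, by one at 273211 to 274370 (1160 bp, score 40.0) and by one at 559149 to 560293 (1145 bp, score 29.2). All 5 lay in the first 6 Mb of the arm.

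Wider peaks scored higher, with a rank correlation of width with score of 0.81 over 84 array peaks, 0.77 over 180 peaks on the rest of 2L and 0.74 over 675 peaks on the other long arms. Width and score come from the same calls, and close peaks share sequence neighbourhoods, so these are descriptions across peaks with no test. From 500 bp upwards the array peaks had lower median scores than the rest, and the ranges overlapped. At 500 bp and more but under 1000 bp the median score was 18.5 in the array (n = 20), 26.1 on the rest of 2L (n = 35) and 28.2 on the other long arms (n = 152). At 1000 bp and more it was 26.7 in the array (n = 20), 51.6 on the rest of 2L (n = 6) and 41.5 on the other long arms (n = 42). Below 300 bp the order was the other way, with medians of 11.3 in the array (n = 21), 9.31 on the rest of 2L (n = 86) and 9.99 on the other long arms (n = 277). Between those limits, from 300 to under 500 bp, the medians were 14.4 in the array (n = 23), 13.9 on the rest of 2L (n = 53) and 13.3 on the other long arms (n = 204).

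**Figure D3:**
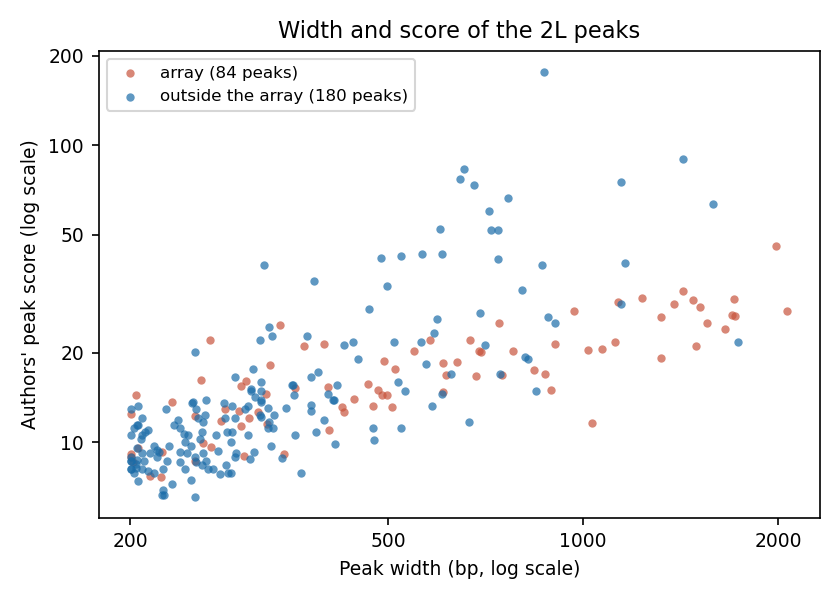
The authors' score against width (bp) for each 2L peak, both on log scales, with 84 array peaks in red and 180 other peaks in blue. From 500 to under 1000 bp the medians are 18.5 for the red points and 26.1 for the blue ones, and the points of both colours overlap.

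The array was a regular train of peaks. Its first peak, at 21416997 to 21417679, scored 16.7 and its last, at 21542893 to 21543149, scored 16.2. The nearest peaks outside it lay 248304 bp before its start and 251814 bp past its end. Wide peaks made up a larger part of the array, since 20 of the 84 (23.8%) were 1000 bp or wider, against 6 of the 180 (3.33%) on the rest of 2L and 6.22% of 675 peaks on the other long arms. That last share is for the arms pooled. Median width was 491.5 bp in the array, 452 bp on X, 315 bp on 2R, 311 bp on 3L and 339.5 bp on 3R, so X came near the array. Scores of 20 or more were held by 31 of the 84 (36.9%), against 41 of the 180 (22.8%) on the rest of 2L. The share was 26.7% of 675 peaks on the other long arms and 30.2% of the whole list. By arm it was 20.7% on 2R, 19.4% on 3L, 27.9% on 3R and 47.5% on X, so the array's share lay below that of X.

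The 5 highest-scoring array peaks lay at 21457351 to 21459334 (score 45.8), 21418205 to 21419631 (score 32.2), 21452473 to 21453706 (score 30.5), 21497713 to 21499419 (score 30.3) and 21507880 to 21509356 (score 30.2). Except for the first, the leading scores were close to each other, and these 5 peaks were between 1234 and 1984 bp wide. The best of them stood far below the score of 176 at the best peak elsewhere on the arm.

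Gaps over 1 kb between peak edges parted the array into 24 blocks. This gap was chosen after the positions were seen. Of the 83 gaps between neighbouring array peaks, 60 were at or below 832 bp and 23 were at or above 1066 bp. Block starts followed each other at a median step of 5054 bp (interquartile range 4923 to 5161 bp, 22 steps). Of these 22 steps, 20 were within 500 bp of 5000 bp, and the others were 5634 and 6473 bp. The midpoints of the widest peak of each block gave a median step of 5046 bp over the same 22 steps, and a shift of 5060 bp gave the best match of the covered positions with themselves (autocorrelation 0.49). The 23rd step, 13336 bp long, spanned the 11615 bp without a peak from 21439395 to 21451009. It equals 2.64 median steps.

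**Figure D4:**
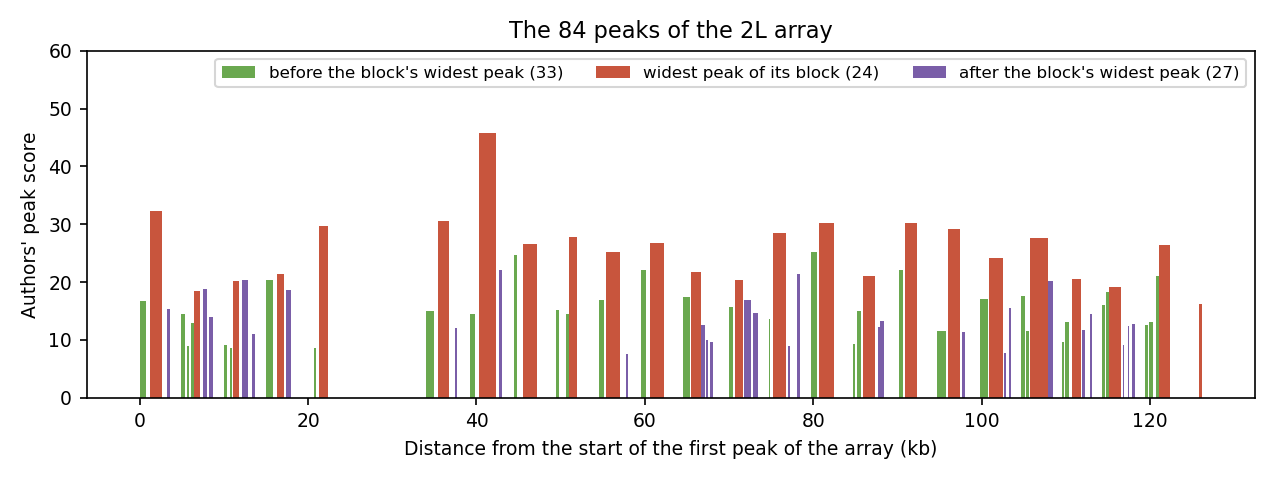
The 84 array peaks drawn to scale by distance from the start of the first one (kb), with bar width for peak width and height for the authors' score. Red bars are the widest peak of each of 24 blocks, and their midpoints recur at a median step of 5046 bp except across the empty 11615 bp.

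In most blocks the widest peak stood between narrower ones, with peaks before it in 23 of 24 blocks and after it in 16. A block held between 1 and 6 peaks (median 3) and spanned a median of 3474 bp, of which peaks covered a median of 77.8%. The widest peak was also the highest-scoring one in 22 of 24 blocks, and in 21 of 24 blocks it was at least 900 bp wide. The 22 include the last block, a single peak for which this holds by definition. Because width goes with score across array peaks, the match in the other blocks is a description only. The midpoint of the widest peak lay a median of 1845 bp from the block's start (interquartile range 1495 to 1964 bp, last block included).

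Other peaks fell on both sides of the widest one. In 23 blocks there were 33 peaks before it, with a median width of 425 bp, a median score of 15.0 and midpoints a median of 341 bp from the block's start. In 16 blocks there were 27 peaks after it, with a median width of 297 bp, a median score of 12.7 and midpoints a median of 3115 bp from the start. The widest peaks themselves had a median width of 1350 bp and a median score of 26.5 (interquartile range 20.9 to 29.3, n = 24). Since the classes were set by width, and width goes with score, the order of these medians is a description only.

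Laid over each other from their starts, the blocks shared covered and empty places. At 1475 bp from the start, 23 of 24 blocks were covered by a peak, and at 1025 bp 9 were. The last block is a single peak of 257 bp, so at most 23 blocks could be covered past that distance. A further rise, to 11 of 24, stood between 3375 and 3525 bp. From 3875 to 4625 bp none of the 24 blocks was covered at any position sampled, every 50 bp. The cover at the start is set by the alignment, and an empty stretch after each block follows from the way blocks were parted. The distance at which it stood depends on where blocks start and end, and so on the gap of 1 kb as well. It is a description for that gap only.

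**Figure D5:**
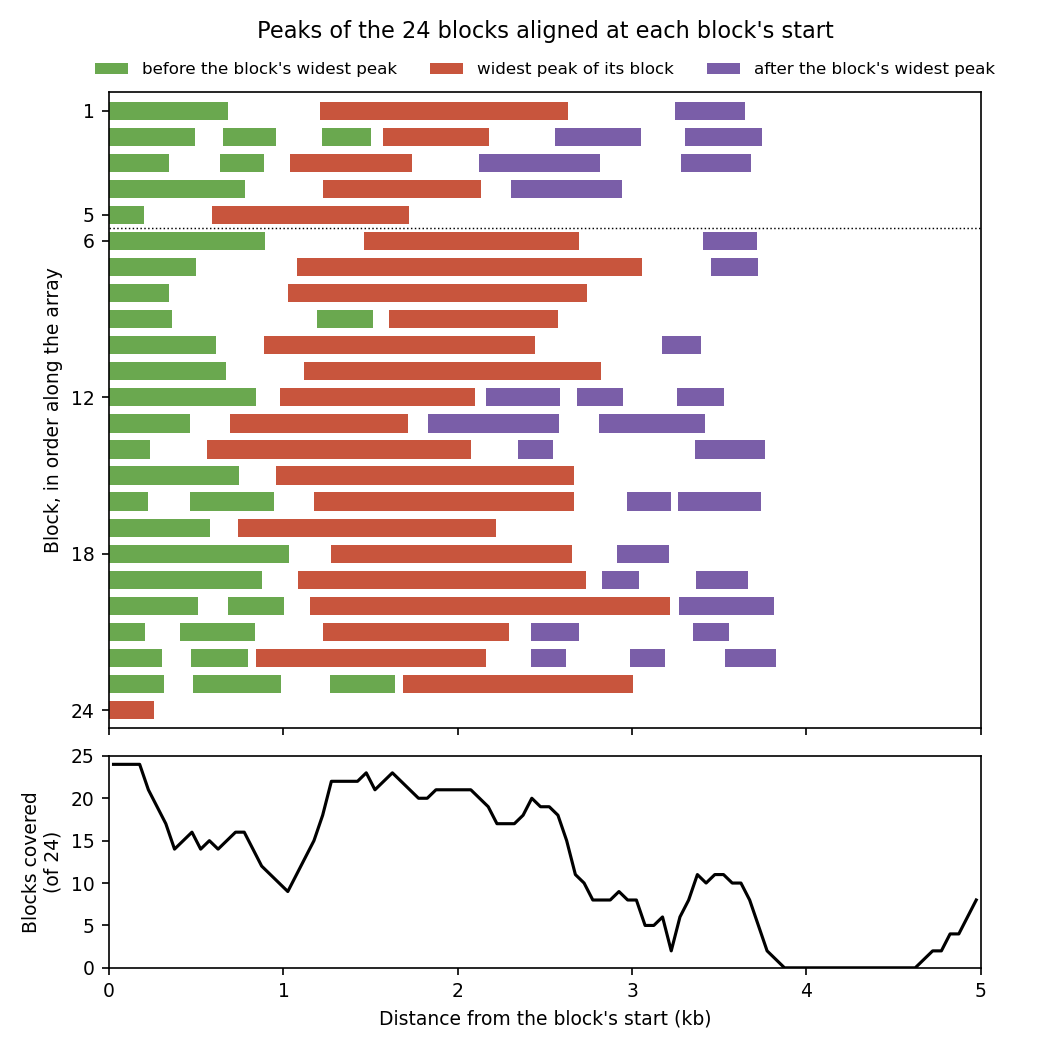
The upper panel draws the peaks of the 24 blocks from each block's start (kb), with green for peaks before the widest one, red for the widest and purple for those after it, and a dotted line at the 11615 bp without a peak. The lower panel counts the blocks covered at each distance, which reaches 23 of 24 at 1475 bp and 0 from 3875 to 4625 bp. The last block ends at 257 bp and adds no cover past it.

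Blocks on both sides of the empty stretch had nearly the same median step, and wide peaks were found on both sides. After it, 18 of 19 blocks had a peak of at least 900 bp, with a median width of 1477 bp for the widest peak, and before it 3 of 5 blocks did, with a median of 906 bp. The highest score of a block had a median of 26.6 after the stretch (range 16.2 to 45.8) and 21.5 before it (range 18.8 to 32.2), so the ranges overlapped. Blocks held 3.42 ± 1.30 peaks after it (SD, n = 19) and 3.80 ± 1.64 before it (SD, n = 5). The median step was 5054 bp after it and 5062 bp before it.

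The second, the third and the last block lacked a peak of at least 900 bp. In the second, at 21421917 to 21425662, 6 peaks were at most 609 bp wide, and the highest score, 18.8, was held by a peak other than the widest. In the third, at 21427051 to 21430735, the widest of 5 peaks was 697 bp wide and scored 20.1, against 20.3 for the highest. The last block was a single peak of 257 bp, with 3468 bp free of peaks before it. Whether the array peaks stand for separate bound sites or for reads shared among near-identical copies was not tested.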

How the data were processed

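The data are 1 peak list for the series, with a start, an end and a score per peak on release 5 of FlyBase (per the file headers). MACS stands in its source field, and the submitters' processing notes name MACS2, BWA, BDGP5 and CASAVA (1.7.0.3 and 1.7.0.2) without their roles. The threshold, the use of input and of both replicates, the scale of the deposited score and the depth were not given in the sources used here. Peaks on 2L were taken by position, and the array is their largest group with edge gaps of at most 50 kb. The members, lists and settings were chosen with earlier results of these data known. Regions named by rule were the 15 highest-scoring and 5 widest peaks, groups of 4 or more peaks, the 5 longest stretches without a peak, the 5 highest array peaks and the places in the repeat. Groups joined peaks with edges at most 10 kb apart. Autocorrelation used 10 bp bins and lags of 2 to 8 kb. The peak functions were tested on simulated data (20 lists each). The RefSeq table of release 6 was used for names and order only. Planned analyses of annotation and motifs were not made, as no release 5 genome was used. Matplotlib 3.10.9, pandas 2.3.3, SciPy 1.17.1 and NumPy 2.4.6 ran under Python 3.11.15.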

Additional observations from a re-analysis of the deposited data

How the results depend on the processing

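Of 26 alternatives to 11 results, 17 stayed within 1.5 times the value given (counts and repeat distances) or within its 95% interval over peaks (medians and shares), and 9 did not. These intervals take the peaks of 1 list as independent draws. They hold no error between replicates and served only as a yardstick for the size of a change. Keeping peaks above the list's median score left 65 of the 180 peaks outside the array, by construction, with a median width of 564 bp, a median score of 22.9 and a median spacing of 236324 bp. Merging peaks within 1 kb gave a median width of 328 bp, a median spacing of 76371 bp and 28.6% of peaks within 10 kb of another, as joining removes the shortest spacings. Within 5 kb the share was 38.3%, and within 50 kb it was 73.9%, as the distance itself sets it. The repeat distance lay between 4990 and 5061 bp in the other 3 ways of measuring it. Parting the array at gaps over 800 bp or 1.2 kb, chosen after seeing the data, gave 26 or 22 blocks with median steps of 4963 and 5059 bp. At 500 bp it gave 34 blocks and a median step of 3948 bp. Both values count among the 17 under the wide limit of 1.5 times, although this step is no longer near 5000 bp. No paired analysis was possible because the deposited calls carry no replicate values, and none could be left out for that reason. Alternatives for annotation and motifs were not run. Since the depth of the libraries is unknown, no limit on missed peaks was set.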
